A study of Mus musculus with 10 samples.

Results

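Genes of mouse chromosome 12 were followed across 10 clonal lines of 3T3-L1, a mouse embryonic fibroblast line whose cells can turn into fat-storing adipocytes. Each gene was represented by its brightest probe set that names 1 gene, and the members were all such genes that RefSeq places on chromosome 12, apart from 16 genes left out (Dlk1, Meg3, Rian, Dio3, Lpin1, Rhob, Rock2, Twist1, Id2, Tgfb3, Hif1a, Egln3, Rsad2, Hsp90aa1, Rrm2 and Acot2), of which 15 had a probe set. This gave 637 members of the 19938 genes on the array. Of these, 531 members were bright enough to be tested, with a signal that exceeded the 25th percentile in 5 or more arrays, and the other 106 were not. By RefSeq type, 476 of the 531 tested members were protein coding, 23 were long non-coding RNAs and 21 were microRNA genes.

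The lines had been grown from single colonies, and each is 1 clone measured once. All were proliferating, not yet confluent and had not received the adipogenic cocktail, so the arrays show the cells before differentiation. The labels divide them by adipogenic potential into 5 Low lines, which are replicate 1 (clone 1E7), 2 (2D7), 3 (2F1), 4 (4D11) and 5 (4H4), and 5 High lines, which are replicate 1 (3F4), 2 (4D2), 3 (4E3), 4 (5C4) and 5 (5D4). The replicate numbers follow only the order of deposition and pair nothing between the classes, and the labels name no difference in genotype or treatment. The 7 fibroblast markers read between 10.7 and 14.1 on the log2 scale in every line. The 3 mature adipocyte markers stayed between 5.71 and 7.67 and the 3 endothelial markers between 6.60 and 7.37. The other markers read at most 8.35 for epithelial, 9.04 for leukocyte and 10.2 for neural genes. High replicate 4 had the lowest mean correlation with the other arrays, 0.987 against 0.991 to 0.993 for the rest.

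Transcript level follows, in part, the number of copies of a gene that a cell carries. When a cultured cell gains or loses a chromosome or a piece of one, neighbouring genes tend to shift together by a modest amount, so a running median along the gene order is a common way to look for such a change in expression data. Cultured fibroblast lines often carry uneven chromosome sets, and single-colony cloning can fix a different set in each line. Chromosome 12 itself holds a serpin cluster, a large imprinted microRNA cluster and many housekeeping genes of translation, splicing and protein transport. DNA was not measured here, so gene copy number and regulation of the transcripts cannot be told apart.

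The sequences shown first are those of the members whose signals stand furthest out in the results. Serpina3n encodes a secreted inhibitor of serine proteases and had the smallest p of the members higher in High lines. Crip1 encodes a small LIM-domain protein and had the largest departure of any 1 line from its gene mean. Their promoters are given from RefSeq, build GRCm38.p6, from 250 bases before to 50 bases after the transcript start, with capitals marking matches on either strand to the TATA box TATAAA, the CCAAT box or the GC box GGGCGG. Serpina3n lies at chr12:104406458-104406757 on the plus strand, and Crip1 at chr12:113151762-113152061 on the plus strand.
Serpina3n: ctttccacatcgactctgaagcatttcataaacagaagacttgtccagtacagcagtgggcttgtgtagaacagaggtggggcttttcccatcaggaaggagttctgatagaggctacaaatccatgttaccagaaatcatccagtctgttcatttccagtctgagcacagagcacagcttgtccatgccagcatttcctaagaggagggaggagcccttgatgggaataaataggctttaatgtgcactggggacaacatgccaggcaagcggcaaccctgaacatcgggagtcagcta
Crip1: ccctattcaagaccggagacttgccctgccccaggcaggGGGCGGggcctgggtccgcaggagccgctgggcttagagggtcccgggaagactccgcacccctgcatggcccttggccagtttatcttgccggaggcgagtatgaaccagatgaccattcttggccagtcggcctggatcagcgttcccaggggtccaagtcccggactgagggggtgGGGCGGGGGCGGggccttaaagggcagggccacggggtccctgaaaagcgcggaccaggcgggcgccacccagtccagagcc

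None of these letters occurred in the Serpina3n window, which held 3 CG pairs and was 48.7% G or C. The Crip1 window held 3 matches to GGGCGG, a pair of them side by side, and 18 CG pairs at 68.3% G or C. Of all 32851 promoters in the table, the GC box was found in 35.7%, the CCAAT box in 37.4% and the TATA box in 13.6%, on either strand, and the median number of CG pairs was 7. Over the 447 tested members with a promoter entry (84.2%) the median was 21 CG pairs. The 32851 promoters are not limited to tested genes, so the medians of 7 and 21 come from unlike sets. By tier of mean signal, described further on, the members' median was 12.5 in the dim, 23 in the middle and 24 in the bright tier. The 40 members that varied most between lines had a median of 25 (36 with an entry) and the 40 that varied least had 9 (37 with an entry). The least variable members were also dimmer, with a median signal of 7.49 against 9.66.

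The microRNA genes of the distal imprinted cluster are shown because they dominate 1 of the stretches described further on. For the 4 whose signal in High replicate 4 departed most from the gene mean, the mature 5p sequences from RefSeq (GRCm38.p6) follow, with the seed, bases 2 to 8, in capitals. They lie on the plus strand of chromosome 12, miR-673 at chr12:109572004-109572025, miR-431 at chr12:109590459-109590479, miR-487b at chr12:109727347-109727367 and miR-134 at chr12:109734145-109734166.
Mir431: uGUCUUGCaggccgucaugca
Mir487b: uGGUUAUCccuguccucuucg
Mir673: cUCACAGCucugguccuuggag
Mir134: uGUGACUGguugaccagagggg

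All 18 microRNA members of that stretch had a mature sequence in the table, and their first listed arms carried 18 different seeds. The arrays probe the hairpin or host transcript from total RNA, so the signals are not levels of these mature RNAs.

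Each tested member's signal was set against its mean over the 10 lines, and the median of these deviations was taken per line. The deviations of a gene sum to 0 over the lines, so a high line is high only relative to the other 9. Low replicates 1, 3, 4 and 5 had medians of 0.085, 0.080, 0.074 and 0.038. Low replicate 2 had a median of -0.048. The High lines lay at -0.021, -0.046, -0.047, -0.053 and -0.070 for replicates 1 to 5, so that 4 Low lines were on one side of 0 and the other 6 lines on the other. Mean and spread were 0.046 ± 0.056 in Low lines and -0.048 ± 0.018 in High lines (SD, n = 5 each).

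The share of members above their gene mean gave the same picture. It was 68.0% in Low replicate 1, 81.5% in Low replicate 3, 68.9% in Low replicate 4 and 59.7% in Low replicate 5. In Low replicate 2 it was 31.1%, inside the range of the High lines, which ran from 26.2% in replicate 5 to 42.4% in replicate 1. Chromosome 12 had the highest median of the 20 chromosomes in Low replicates 1, 3 and 4, and the lowest in High replicates 1 and 4.

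The sign of a line's median also depends on how arrays are scaled. When each array was centred on its own median, High replicates 2 and 4 moved to 0.020 and Low replicate 5 to 0.00065. A difference between chromosome 12 and the other genes of the same array is untouched by such centring. Relative to the 15794 tested genes that are not on chromosome 12, the median was higher by 0.099, 0.071, 0.072 and 0.060 in Low replicates 1, 3, 4 and 5. The relative values were -0.032 in Low replicate 2 and -0.051, -0.055, -0.015, -0.097 and -0.049 in High replicates 1 to 5.

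The size of the shift changed with the brightness of the genes. Members were split by mean signal into a dim, a middle and a bright tier of 177 genes each, with borders near 7.92 and 10.1. In the bright tier the medians were 0.15, 0.13, 0.15 and 0.097 in Low replicates 1, 3, 4 and 5, and -0.068 in Low replicate 2. The High lines lay at -0.089, -0.097, -0.019, -0.16 and -0.091. Genes of other chromosomes in the same range of signal, 5707 in all, had medians between -0.029 and 0.022 in every line. In the dim tier the order was lost, and High replicate 4 was the highest line at 0.18.

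**Figure D1:**
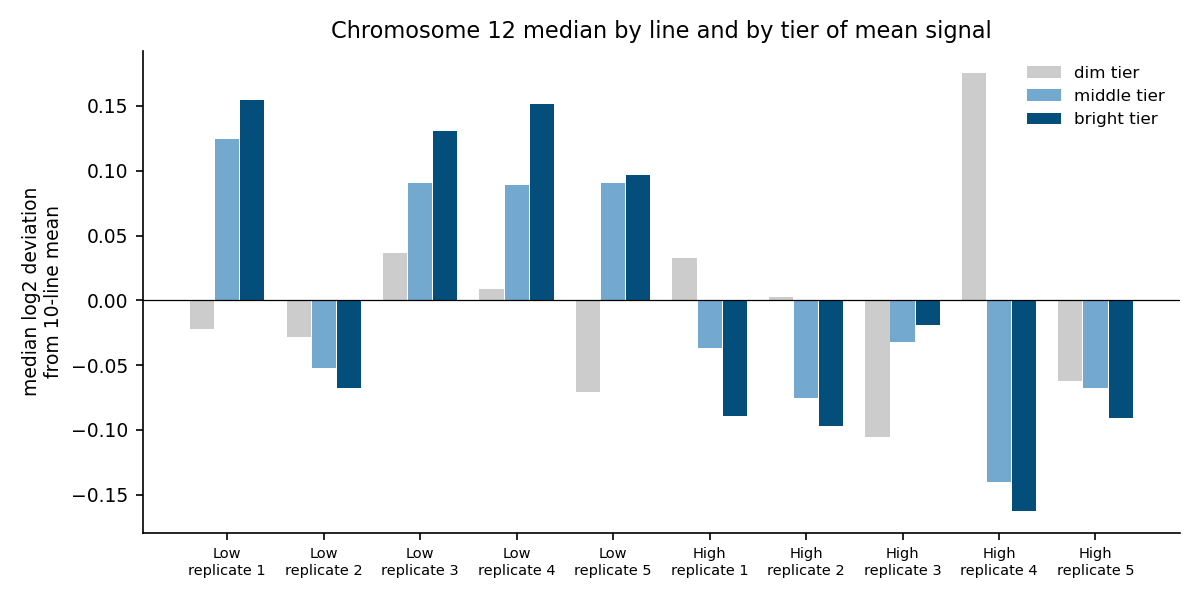
Median log2 deviation from the 10-line gene mean of chromosome 12 members, per line, in the dim, middle and bright tiers of mean signal (177 genes each; bars start at 0). Bright-tier bars are above 0 in Low replicates 1, 3, 4 and 5 and below 0 in the other 6 lines, while the dim-tier bar of High replicate 4 stands at 0.18.

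In High replicate 4 deviations were lower in brighter genes across the tested genes outside chromosome 12 (correlation across genes -0.37, a description of 1 array). In the other arrays the correlation ran from -0.10 in High replicate 1 to 0.24 in High replicate 3. The gene order was read a second time from the 354 members of the middle and bright tiers, a choice made after the data were seen. It leaves out the dim tier, whose lines were ordered differently, and with it Serpina3n, which has a mean signal of 7.80. Over these members the medians were 0.15, 0.11, 0.13 and 0.093 in Low replicates 1, 3, 4 and 5. The other 6 lines lay at -0.058 in Low replicate 2 and at -0.066, -0.090, -0.027, -0.15 and -0.076 in High replicates 1 to 5. With arrays centred on their medians, no line changed sign, and the 2 that moved most, High replicates 4 and 2, stood at -0.077 and -0.024. Set against 10492 genes of other chromosomes in the same range of signal, chromosome 12 was 1.10-fold in Low replicate 1 and 0.916-fold in High replicate 4, the extremes of the 10 lines.

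**Figure D2:**
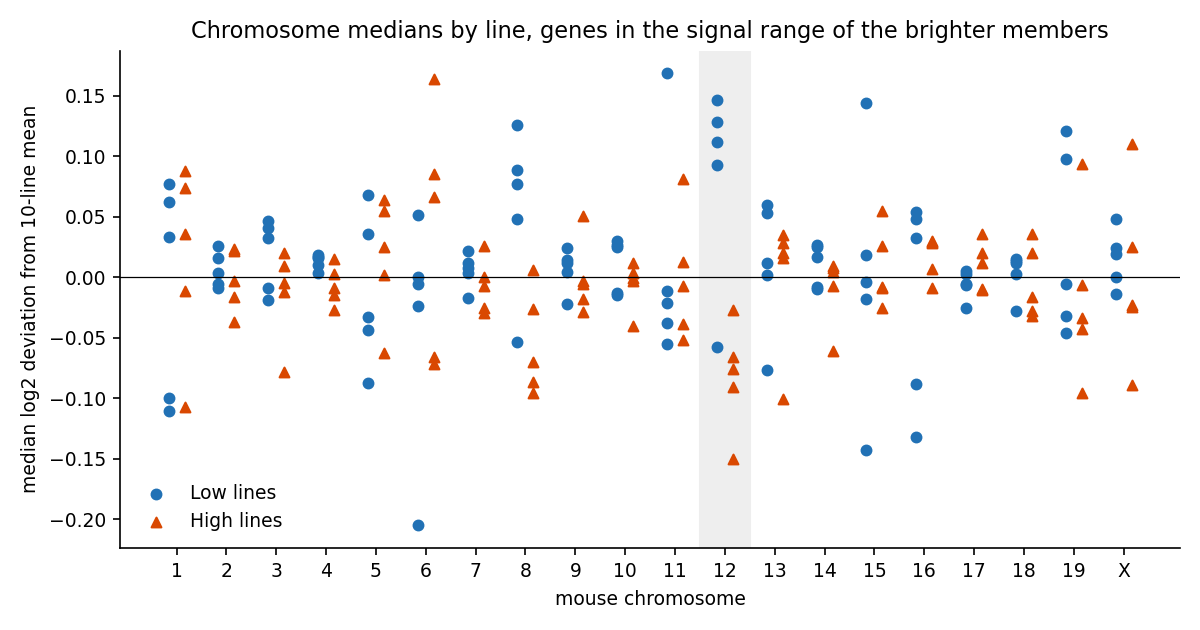
Median log2 deviation from the 10-line gene mean for each mouse chromosome, 1 point per line (circles Low, triangles High), over tested genes with a mean signal of at least 7.92. On chromosome 12 (shaded), 4 Low lines sit between 0.093 and 0.147 and the other 6 lines between -0.150 and -0.027.

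Among the 20 chromosomes, the 10 line medians of these brighter genes spread most on chromosome 12, with an SD of 0.108. Chromosome 6 followed with 0.102, and over all tested genes it came first with 0.070 and chromosome 12 next with 0.063. On chromosome 6 Low replicate 2 was lowest at -0.205. Low replicate 2, the Low line that sided with the High lines on chromosome 12, was thus also low on chromosome 6, and it was the highest line on chromosome 11 at 0.169.

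Running medians over 51 neighbouring tested members were then used to find where each line shifted. A shifted stretch was a run of at least 10 windows in a row that all lay at or beyond 0.1 in 1 direction. Over all 531 tested members, 15.2% of the 4810 line windows lay beyond 0.1, where the other chromosomes gave 5.1%. Chromosome 6 had a larger share, 16.9%. With each array's trend with brightness removed, the share on chromosome 12 was 11.4%, beside 2.93% on the other chromosomes. There were 19 such stretches, 5 in Low replicate 1, 4 each in Low replicate 3 and High replicate 4, 2 each in Low replicate 4 and High replicate 5, and 1 each in High replicates 2 and 3. A stretch is bounded by the central genes of its windows, so genes outside it also enter. The low stretch of High replicate 2 (Lin52 to Rps6kl1) had a median of 0.012 over its own members, with 6 of 14 below 0. The low stretch of High replicate 4 from Rnf144a to Sh3yl1 had -0.00089, with 9 of 18 below 0. High replicate 4 alone held 194 low windows and 44 high ones of its 481, and without this line the share beyond 0.1 was 7.95% and the stretches numbered 12. Leaving out High replicate 1 or High replicate 5 also gave 12 stretches.

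**Figure D3:**
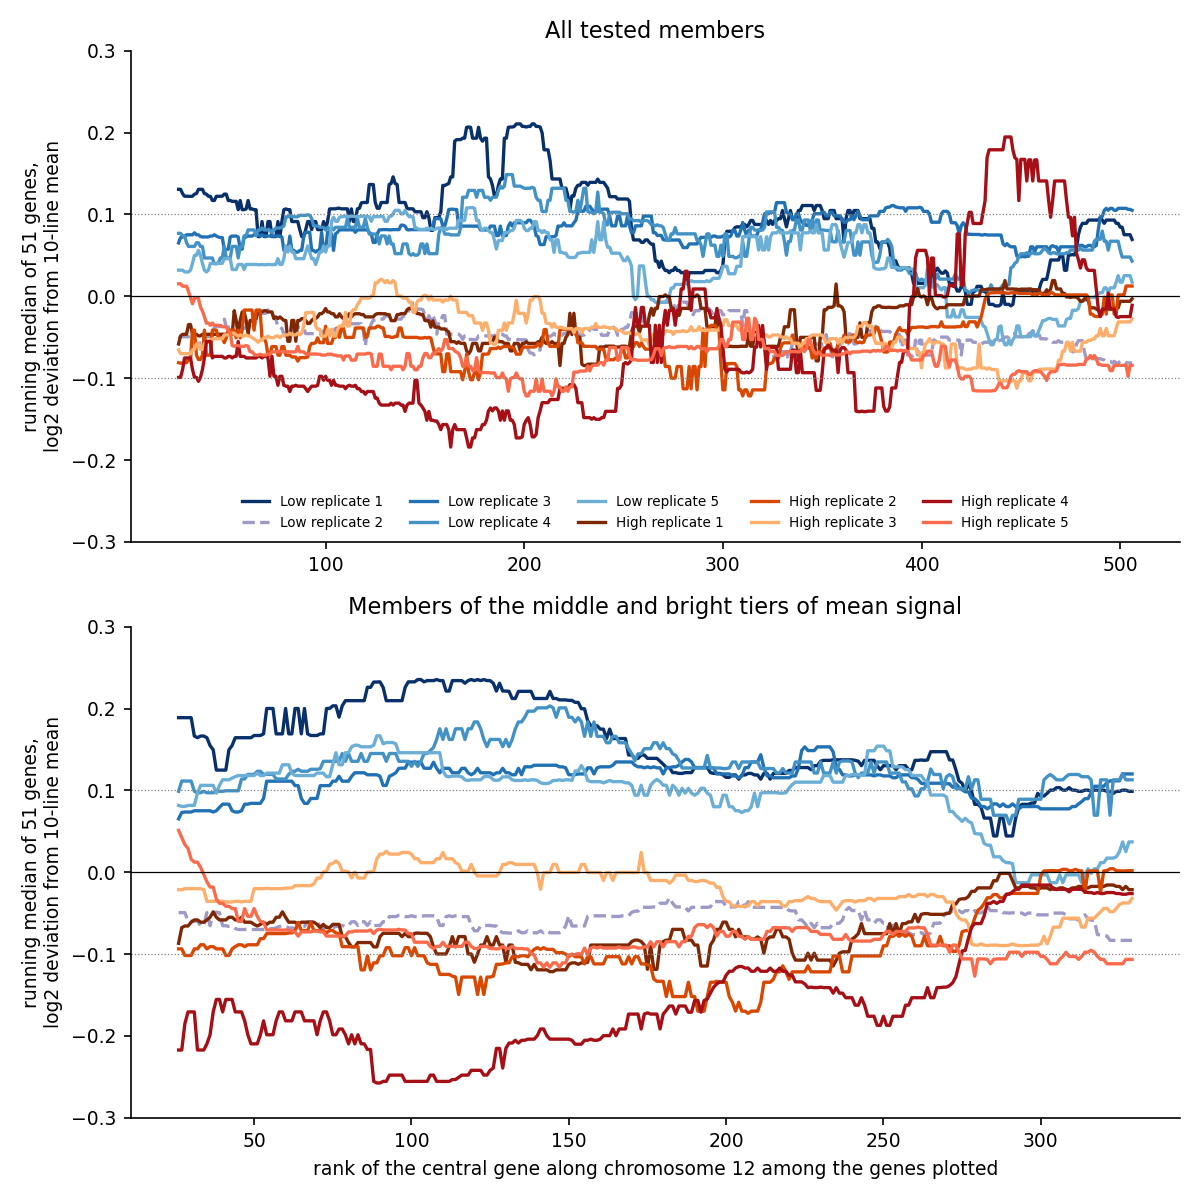
Running median of the log2 deviation over 51 genes for each line, by rank of the central gene along chromosome 12, for all 531 tested members (top) and for the 354 brighter members (bottom). Low lines are blue to violet with Low replicate 2 dashed, High lines are red to brown, and dotted lines mark 0.1 and -0.1. In the bottom panel Low replicates 1, 3, 4 and 5 run above the other 6 lines in 290 of 304 windows. These 4 lines were set apart after the data were seen. Neighbouring windows share most of their genes, so the count largely restates the medians over the whole chromosome.

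The longest stretch of a Low line began at Prorp and ended at Fut8 in Low replicate 1. It held 96 tested members with a median of 0.14, and 77 of them lay above their gene mean. Prorp encodes a protein subunit of mitochondrial RNase P, and Fut8 encodes the fucosyltransferase that modifies the core of N-glycans. The 4 members that stood highest there in this line were Fancm, Gemin2, Six4 and Daam1. Fancm, a DNA translocase of the Fanconi anaemia pathway, read 9.24, 8.56, 8.91, 9.39 and 8.95 in Low replicates 1 to 5 and 8.41, 8.50, 8.74, 8.16 and 8.32 in High replicates 1 to 5. Low replicates 1 and 4 were highest, and Low replicate 2 lay below High replicate 3.

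Nearly the same ground was high in Low replicate 4, from Foxa1 to Syne2, with 72 tested members and a median of 0.13. Its leading members were Fancm, Sos2, Nemf and Togaram1. Sos2, a guanine nucleotide exchange factor that activates Ras, read 10.41, 10.12, 10.27, 10.75 and 10.30 in Low lines and 10.03, 10.04, 10.03, 9.90 and 10.07 in High lines. All 5 Low lines lay above all 5 High lines, with Low replicate 4 highest and High replicate 4 lowest.

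High replicate 4 was low over a longer run that took in most of both, from Cbll1 to Churc1. It held 149 tested members with a median of -0.14, and 102 of them lay below their gene mean. Zbtb25, a zinc finger transcription factor, had the largest departure there, with 8.95 in High replicate 4, while the other High lines read 9.66 to 9.98 and the Low lines 9.71 to 10.06. Mbip, a subunit of a histone acetyltransferase complex, read 9.45 in that line and 10.03 to 10.25 in the other High lines. Churc1 and Eapp followed, at 9.52 and 8.29 in High replicate 4 and above these values in each of the other 9 lines.

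High replicate 4 also had the 1 stretch of a High line that ran above the limit. It lay distally, from Setd3 to Mir409, with 34 tested members, of which 18 were microRNA genes and 15 were protein coding. The median was 0.21 over all 34, 0.28 over the microRNA genes and -0.024 over the coding genes. Mir431 read 8.59 in this line and between 7.86 and 8.16 in the other 9. Mir487b was at 7.84 there and between 7.17 and 7.50 elsewhere. MicroRNA genes on other chromosomes stood high in the same array too, with a median of 0.18 over 124 genes, and after removal of each array's trend with brightness the stretch median was 0.042. The part of probe brightness and probe type in this stretch was not tested beyond these values.

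The brighter members gave fewer breaks and longer runs. Over their 304 windows, 48.0% of line windows lay beyond 0.1, in 16 stretches. Other chromosomes in the same range of signal gave 0 to 31.3%, with chromosome 6 highest and chromosome 1 next at 25.9%. Low replicate 1 was high in 1 run of 250 members from Wdr35 to Ifi27l2a, and High replicate 4 was low in 1 run of 249 members from Wdr35 to Ddx24. Low replicate 3 was high over 205 members from Cog5 to Ifi27l2a, Low replicate 4 over 214 from Itgb1bp1 to Ppp4r3a, and Low replicate 5 over 132 from Nol10 to Max. High replicate 2 was low over 98 members from Ppm1a to Ttc8. Low replicate 2 and High replicate 3 had none, and their running medians stayed between -0.083 and -0.031 and between -0.090 and 0.026.

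Along the chromosome the shifts were not even. Cut into 6 blocks of 59 brighter members in gene order, Low replicate 1 went from 0.21 in the third block (Togaram1 to Rdh11) to 0.096 in the last (Mir342 to Tmem196). High replicate 4 stood at -0.22 in the third block and -0.025 in the last. High replicate 2 went from -0.15 in the fourth block to 0.002 in the last, and Low replicate 5 from 0.16 in the second to 0.019 in the last. High replicate 5 took the opposite course, at 0.029 in the first block (Rab10os to Adi1) and -0.12 in the last. Low replicate 4 went from 0.19 in the third block to 0.11 in the last, and Low replicate 3 from 0.13 to 0.11. The last block also differs in kind, since it holds microRNA genes from Mir342 to Mir134. Over all 21 tested microRNA members the median was 0.26 in High replicate 4 and 0.041 in High replicate 2. It was -0.11 in High replicate 5, and -0.046, 0.049, 0.014 and -0.12 in Low replicates 1, 3, 4 and 5. The blocks were not read from coding genes alone, so position and probe type were not separated there.

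The running medians were read once more from separate genes. Stretches were found from tested members of odd rank alone and then measured in the members of even rank within them. Of 31 stretches found in this way, 26 had an even-rank median on the same side of 0. A line with most members on 1 side of 0 would give such a count wherever its stretches lay, so it does not bear on their position. A second probe set above the filter was also held by 35 members, and its median was 0.10, 0.089, 0.10 and 0.047 in Low replicates 1, 3, 4 and 5. It was -0.034 in Low replicate 2 and -0.051, -0.034, 0.024, -0.13 and -0.10 in High replicates 1 to 5, so that High replicate 3 changed side.

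High and Low lines were compared gene by gene with limma, fitted over all 16339 tested genes. Chromosome 12 members were lower in High lines as a body, with 361 of 531 differences below 0 and a median difference of -0.11, where all tested genes had a median of 0.021. No single member passed an adjusted p of 0.05, and the smallest was 0.255. The background is 0.00612% of all tested genes called, which is 1 gene. At an unadjusted p under 0.05, 159 members (29.9%) were lower in High lines beside 4.79% of all tested genes, and 5 members (0.94%) were higher beside 3.16%. In 43 members (8.1%) all High lines lay below all Low lines, beside 1.04% of all tested genes. The opposite held for 1 member, Serpina3n, beside 0.526%. Chromosome 8 came next to chromosome 12, with 67.3% of its differences below 0, 20.6% of its genes lower at that p and 5.64% without overlap. Neighbouring genes moved together, so the chromosome 12 members are not independent of one another.

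These counts depended on a few choices, under which the shares over all tested genes were not counted. Without Low replicate 2, 116 members had all High lines below all Low lines, and with arrays centred on their medians 22 did. Groups without overlap are easier to reach for any gene when a line is dropped. When the leading digit of the clone name, which the labels do not explain, was fitted as a block, 54 members were lower and 0 were higher at an unadjusted p under 0.05. Only the digit 4 holds both classes, so that fit rests on 2 Low lines (replicates 4 and 5) against 2 High lines (replicates 2 and 3).

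The difference also followed brightness. In the bright tier 173 of 177 members were lower in High lines, 88 of them (49.7% of the tier) at an unadjusted p under 0.05, with a median of -0.19. In the middle tier the median was -0.16 and 64 members (36.2%) were lower at that p. In the dim tier 55 of 177 differences were below 0 and the median was 0.038. The 21 microRNA members had a median of 0.076, with none past an unadjusted p of 0.05.

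**Figure D4:**
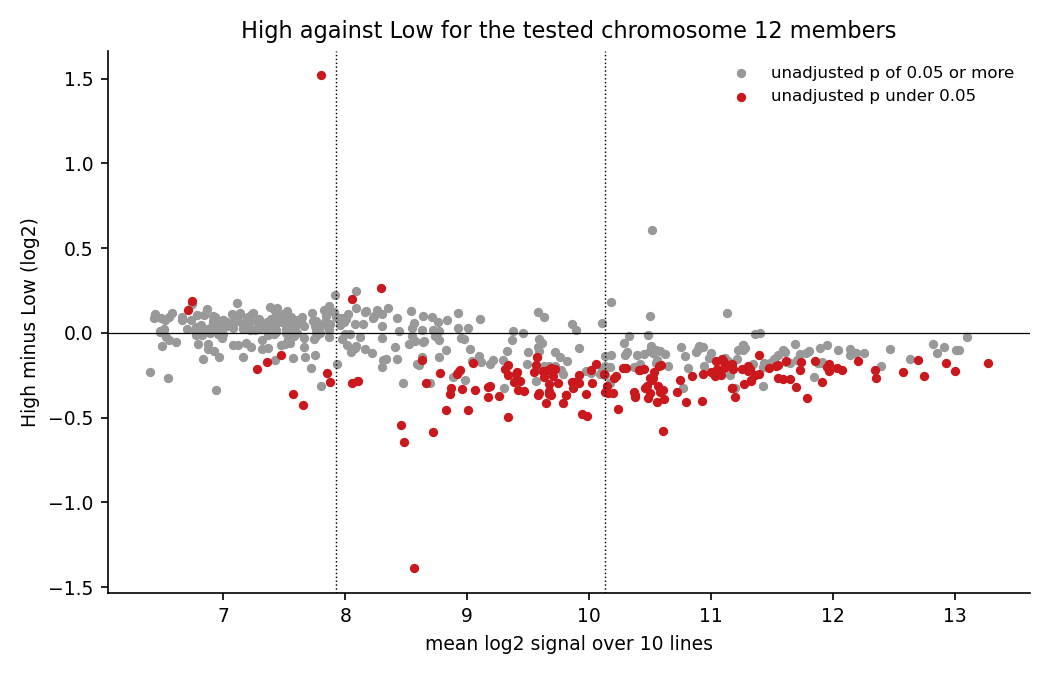
High minus Low difference (log2) of each of the 531 tested chromosome 12 members against its mean log2 signal over 10 lines; red points have an unadjusted limma p under 0.05 and dotted lines mark the borders of the tiers. To the right of the second border 173 of 177 points are below 0, and the highest point, at 1.52, is Serpina3n.

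Among the 354 brighter members, 86.4% were lower in High lines, the largest share of any chromosome in the same range of signal. Chromosome 8 came next with 83.0%. At an unadjusted p under 0.05, 42.9% of the brighter members were lower in High lines. The other chromosomes in that range of signal gave 0.92% (chromosome 6) to 28.3% (chromosome 8). High lines were below Low lines on average in all 304 windows of brighter members, by 0.077 to 0.24. Neighbouring windows share most of their genes, so the 304 are not separate readings. In the block from Trappc12 to Klhl28 the median difference was -0.22, and in the last block, which also holds microRNA genes, it was -0.12.

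Arid4a, a subunit of a histone deacetylase complex that binds the retinoblastoma protein, had the smallest p of all members. Its signal was 9.20, 9.05, 8.93, 9.20 and 8.88 in Low lines and 8.72, 8.48, 8.60, 8.42 and 8.78 in High lines. The groups did not overlap, though Low replicate 5 and High replicate 5 lay close. The means were 9.05 ± 0.15 and 8.60 ± 0.15 (SD, n = 5 each), a difference of -0.45 (SE 0.09) with a limma adjusted p of 0.255.

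Cpsf2, a subunit of the complex that cleaves pre-mRNA at its 3' end, read 10.98, 10.75, 10.82, 11.04 and 10.88 in Low lines. In High lines it read 10.44, 10.65, 10.61, 10.50 and 10.54, each below the lowest Low line. The difference was -0.35 (SE 0.07, limma adjusted p of 0.255). Prorp differed by -0.38 (SE 0.08) and did not overlap either, at 10.53 to 10.81 in Low lines and 10.10 to 10.47 in High lines.

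Eif2b2, a subunit of the guanine nucleotide exchange factor of translation initiation, stood between 11.21 and 11.58 in Low lines and between 10.88 and 11.14 in High lines. Fntb, the beta subunit of protein farnesyltransferase, differed by -0.48 but overlapped, since Low replicate 2 at 9.86 lay below High replicate 3 at 9.94. Map4k5, a kinase upstream of the JNK pathway, Coq6, an enzyme of coenzyme Q synthesis, Tmem18, Zfp277 and Itgb1bp1 completed the 10 members with the smallest p. Their differences ran from -0.38 to -0.28, none overlapped, and the limma adjusted p of each was 0.277.

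**Figure D5:**
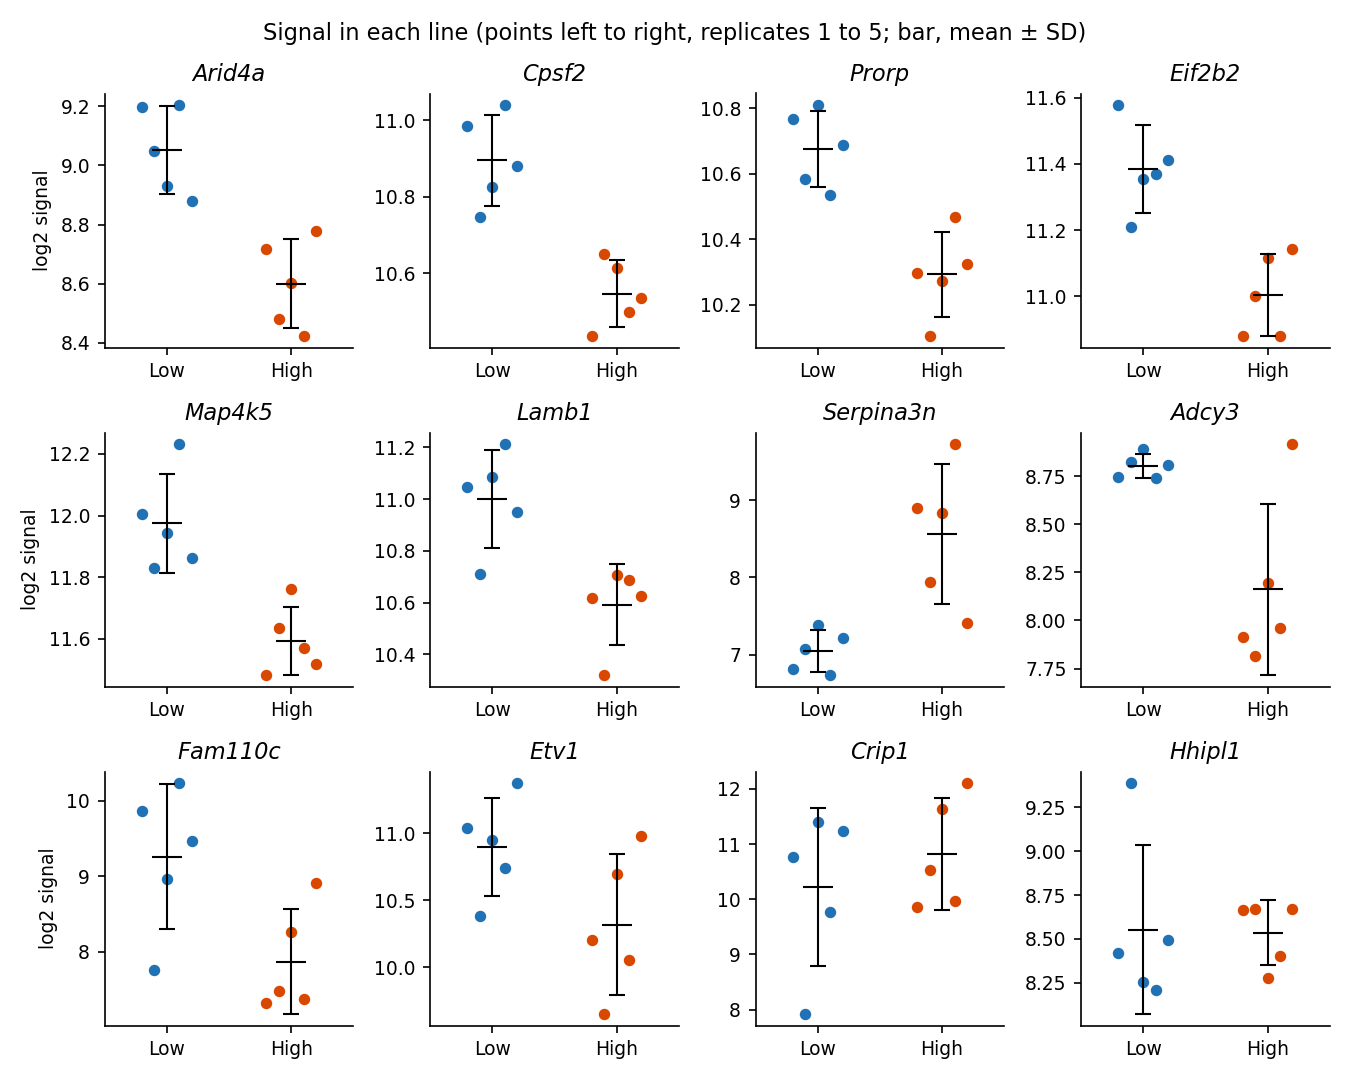
Log2 signal of 12 chromosome 12 members in each Low and High line; points run from replicate 1 to 5, bars give mean ± SD (n = 5), and each panel has its own axis. The first 6 genes separate the classes downward in High lines, Serpina3n upward, and Adcy3 lies below all Low lines in every High line except replicate 5 at 8.92.

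In the other direction, Serpina3n read 6.81, 7.08, 7.38, 6.73 and 7.21 in Low lines and 8.90, 7.94, 8.83, 9.73 and 7.41 in High lines. High replicate 4 was highest, and High replicate 5 lay just above the top Low line. The difference was 1.52 (SE 0.35, limma adjusted p of 0.277), and without High replicate 5 it was 1.81 with an adjusted p of 0.0454. Its promoter, printed above, held none of the 3 motifs. The next members in this direction, Efr3b, Clec14a, Prima1 and Dnah11, differed by 0.13 to 0.26, and in all of them the groups overlapped.

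Adcy3, an adenylyl cyclase that makes cyclic AMP, turned on the same line. It read 8.75, 8.82, 8.89, 8.74 and 8.81 in Low lines and 7.92, 7.81, 8.20, 7.96 and 8.92 in High lines. High replicates 1 to 4 lay far below every Low line and High replicate 5 above all of them. The difference was -0.64 (SE 0.17, limma adjusted p of 0.311), and without High replicate 5 it was -0.83 with an adjusted p of 0.00228. Adcy3 and Serpina3n were the 2 members past the threshold in that fit, and 0 passed with any other line left out. The line dropped was the High line nearest to, or above, the Low lines in both genes. How many of all tested genes passed in that fit was not counted.

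Some members departed in 1 or several lines by far more than the running median of any line. Crip1 read 7.92 in Low replicate 2 and 9.77 to 11.39 in the other Low lines, and between 9.85 and 12.11 in High lines, a departure of -2.60 from its mean. Fam110c, a protein of the centrosome and microtubules, was at 9.86, 7.76, 8.96, 10.23 and 9.46 in Low lines and 7.32, 7.48, 8.26, 7.38 and 8.91 in High lines. Its difference of -1.39 (SE 0.44, limma adjusted p of 0.425) was the most negative of the members named here, and again Low replicate 2 lay among the High lines. Etv1, an ETS-family transcription factor, was lowest in High replicate 2 at 9.65 and highest in Low replicate 5 at 11.37. Ttc9 read 7.90 in Low replicate 2 and 6.63 to 7.17 in the other 9 lines.

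Lists of members by role were then described. Their counts are to be read against the chromosome 12 members as a whole, of which 68.0% were lower in High lines, 29.9% at an unadjusted p under 0.05 and 8.1% without overlap, and against the bright tier, where these shares were 97.7%, 49.7% and 15.8%. No list was tested against the other members. In the list of translation, RNA processing and protein turnover, 34 of 34 tested members were lower in High lines, 20 (58.8%) at an unadjusted p under 0.05 and 8 (23.5%) without overlap. Besides Cpsf2 and Eif2b2, its leading member was Tmed10, a cargo receptor of the early secretory pathway, at 12.71 to 12.94 in Low lines and 12.57 to 12.66 in High lines. The median deviation of this list was 0.16, 0.12, 0.15 and 0.17 in Low replicates 1, 3, 4 and 5, -0.053 in Low replicate 2 and -0.25 in High replicate 4. High replicate 3 stood at 0.0093.

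Of the genes of DNA replication, repair and chromosome segregation, 22 of 23 were lower, 9 (39.1%) at an unadjusted p under 0.05 and 1 (4.35%) without overlap. Fancm differed by -0.59 (SE 0.15). Tdp1, which removes stalled topoisomerase from DNA, differed by -0.33 without overlap, and Smc6, a subunit of the SMC5/6 complex, by -0.33 with overlap. Low replicate 2 was as low as the lowest High lines in this list, at -0.16 against -0.17 in High replicate 4 and -0.15 in High replicate 5.

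Actin, nuclear envelope and motor proteins had 19 of 23 lower, 10 (43.5%) at an unadjusted p under 0.05 and 4 (17.4%) without overlap. Cfl2, a cofilin that severs actin filaments, read 12.29 to 12.69 in Low lines and 12.16 to 12.27 in High lines. Klc1, a kinesin light chain, and Arf6, a small GTPase of membrane traffic at the cell surface, differed by -0.20 and -0.22 without overlap. Signalling kinases and phosphatases had 17 of 23 lower, 11 (47.8%) at that p and 5 (21.7%) without overlap. Ppp2r3c and Ppp2r5e, regulatory subunits of protein phosphatase 2A, differed by -0.49 and -0.38.

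Transcription factors and early response genes had 21 of 29 lower (72.4%) and 7 at an unadjusted p under 0.05 (24.1%), shares near those of all members. Baz1a, a chromatin remodelling subunit, differed by -0.37, Snw1, a splicing and transcription cofactor, by -0.22, and Zbtb1 by -0.26, all without overlap. Mitochondrial genes had 9 of 10 lower and 3 (30.0%) at that p, led by Coq6, which read 9.76 to 9.88 in Low lines and 9.35 to 9.68 in High lines. Dlst, a subunit of the 2-oxoglutarate dehydrogenase complex, differed by -0.17.

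Lipid and sugar metabolism had 17 of 27 lower (63.0%), 6 at an unadjusted p under 0.05 (22.2%) and 1 without overlap (3.7%), each share below that of all members. Galc, the lysosomal galactosylceramidase, differed by -0.49, and Sgpp1 and Sptlc2, enzymes of sphingolipid turnover and synthesis, by -0.22 and -0.16, each with overlap. Matrix, adhesion and secreted proteins had 17 of 25 lower (68.0%), with 4 lower at that p, a smaller share than of all members, and 1 higher. Lamb1, a laminin chain of basement membranes, read 11.05, 10.71, 11.09, 11.21 and 10.95 in Low lines and 10.62, 10.32, 10.71, 10.69 and 10.63 in High lines. Low replicate 2 and High replicate 3 were nearly level, both at 10.71 after rounding, and the fit gave -0.41 (SE 0.10, limma adjusted p of 0.288).

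Of members known from nerve, blood, thyroid or liver cells, 3 of 19 (15.8%) were lower in High lines, with a median of 0.048 and 0 past an unadjusted p of 0.05 in either direction. Most of them belonged to the dim tier, in which 31.1% of members were lower and 7 lower and 3 higher members of 177 passed that p. Chga, a secretory granule protein of neuroendocrine cells, read 7.36 to 7.54 in Low lines and 7.36 to 7.75 in High lines, and Kcnk13, a potassium channel, 7.30 to 7.42 and 7.38 to 7.58. No member of any of the 9 lists passed an adjusted p of 0.05, and the lists were read only against the counts over the chromosome 12 members and their tiers given above.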

How the data were processed

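The authors deposited 1 table of log2 intensities, 34760 probe sets by 10 arrays. Per the labels, sense-strand cDNA was made from total RNA and biotin labelled; the submitters' processing notes name RMA but give it no version. RMA makes array distributions alike, so a shift shared by most genes would be lost. No array batch or build was found in these sources, so members are placed by gene order in the RefSeq table of GRCm38.p6. The platform annotation gave 21640 probe sets 1 gene symbol, 1321 several, and left 11799 unnamed here. The brightest probe set was kept for each of 19938 genes, and 16339 passed the filter.

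Deviations, running medians, brightness tiers and stretches are descriptions without a test. High against Low was fitted with limma 3.58.1 (lmFit, eBayes; two-sided, Benjamini-Hochberg adjusted) in R 4.3.3. Folds are powers of 2 on the RMA scale. Each line is 1 array of 1 clone, so the 5 lines per class limit the precision and the spread mixes clonal and technical variation. Tables used Python 3.11.15 and pandas 2.3.3. Named members were the 10 with the smallest p in each direction, the 3 smallest of each list, the 4 largest inside a stretch and the 8 largest single-line departures, coding genes only. The 4 microRNAs were chosen after their values were seen, and Adcy3 because a count of 2 named it. The members and lists were chosen with earlier results of these data known. The fit and the stretch search were run on simulated data with independent genes. The shift planted for the search was larger than the median of any stretch reported, so the run does not bear on those sizes. Alternatives covered the filter, probe sets, centring, quantile normalization, a brightness trend, variance models, array weights, clone-name block, window, limit and each line left out. Those limited to brighter or to coding members were added after the data were seen.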

Additional observations from a re-analysis of the deposited data

Results flagged for a closer look

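In 7 of 120 sets of 5 lines examined, 1 line stood apart from the other 4 of its class. The count of about 6 given by chance holds only for independent sets that were not picked by their values. Some of these members were named for a departure in 1 line, and neighbouring genes moved together, so the 7 cannot be judged by it. The median deviation of the brighter chromosome 12 members was -0.058 in Low replicate 2 and 0.093 to 0.147 in the other Low lines. Hhipl1 read 9.39 in Low replicate 2 against 8.21 to 8.49. Itgb1bp1 read 9.75 in Low replicate 3 against 9.50 to 9.54. Lamb1 read 10.32 in High replicate 2 against 10.62 to 10.71. In High replicate 4, Kcnk13 was at 7.58 against 7.38 to 7.43, Sos2 at 9.90 against 10.03 to 10.07, and Mbip at 9.45 against 10.03 to 10.25. What set these lines apart was not tested.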

How the results depend on the processing

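No paired analysis was possible because the labels give no replicate numbers that the classes share. The High minus Low of the line medians stayed below 0 under each filter, probe set, scaling and member setting and with each line left out; the settings of the limma fit, window and limit do not enter it. With no filter, 2 members had all High lines above all Low lines, 7.16% of line windows lay beyond 0.1 and there were 10 stretches. With a filter at the array median these were 0 and 41.2%, with 2 members higher at an unadjusted p under 0.05 and a High minus Low of the line medians of -0.156. Centring gave 22 members with High below Low and 2 above. Repeated quantile normalization and brightness trend removal each gave 9 stretches. Array weights gave 3 higher members, and the clone-name digit as a block 54 lower and 0 higher. A window of 25 genes gave 32 stretches and one about 2 times the main length gave 6, and a limit of 0.15 gave 4 stretches and 2.35% of windows. Brighter members alone gave 2 higher, 0 without overlap above, -0.166 between the line medians and 48.0% of windows.

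Leaving out each line gave 0 to 2 members past the adjusted threshold, 121 to 203 lower and 2 to 10 higher at an unadjusted p, 43 to 116 with all High below Low and 1 to 4 above. Groups without overlap are easier to reach for any gene with fewer lines, and counts over all tested genes were not taken for these fits. The difference of line medians ran from -0.117 to -0.0825, windows beyond 0.1 from 7.95% to 18.8% and stretches from 12 to 22. Of 1093 values for 58 named members, 1084 kept direction and side of the threshold and 2 newly passed it (Adcy3 and Serpina3n without High replicate 5). The 7 reversals were Hhipl1, which had no clear direction (-0.016 as reported, -0.10 without Low replicate 4), at 0.0065 with centring, 0.048 with array weights, 0.12 with the block, 0.19 without Low replicate 2, 0.048 without High replicate 3 and 0.017 without High replicate 4, and Kcnk13, at -0.011 with the block. The cause was not tested except where fewer members or lines entered. No background level was measured, so what signal limits in the dim tier is unknown.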
